A study of Mus musculus with 5 samples.

Results

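The keratins of the inner root sheath, the rigid sleeve that surrounds and moulds the growing hair, and trichohyalin, the protein that glues their filaments together, were followed in RNA sequencing of keratinocytes from mouse back skin. The set was chosen by name and comprises the type I keratin genes Krt25, Krt26, Krt27 and Krt28, the type II keratin genes Krt71, Krt72, Krt73 and Krt74, and Tchh. It makes up 9 of the 56691 gene IDs in the count table, and each of the 9 had counts in all 5 libraries and passed the filter on low counts. Krt26 and Krt74, with 4 to 9 counts in each GFP library, passed it through the bulk libraries alone. All libraries came from mice at day 28. The 2 bulk libraries hold the population taken without regard to GFP, labelled as basal keratinocytes with a WT genotype. The 3 GFP libraries hold cells sorted on GFP, labelled as Lrig1 positive in genotype and as epidermal stem cells. Lrig1 is a membrane protein known from cells of the upper hair follicle. What drives GFP, how the gates were set, the strain, and whether each library came from its own mouse were not stated in the labels read here. The p-values therefore measure the spread between these libraries, which may be technical. The comparison asks how cells sorted on GFP differ from the unsorted population. By these labels the genotype changes together with the sort, so the parts of genotype and sort cannot be told apart.

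Keratins build filaments from pairs of an acidic type I and a basic type II chain, so every epithelial layer expresses members of both types. In the inner root sheath, which consists of Henle's layer, Huxley's layer and a cuticle, Krt25, Krt27, Krt28 and Krt71 are known as general sheath keratins, Krt26, Krt72 and Krt73 as cuticle keratins, and the human counterpart of Krt74 as a keratin of Huxley's layer. Trichohyalin fills the sheath cells as granules, is deiminated by peptidylarginine deiminases such as Padi3, and is then cross-linked to the keratins by transglutaminases, which hardens the sheath. Changes in Krt25, Krt27 or Krt71 are known to give mice wavy or curly coats.

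The type I genes lie side by side on chromosome 11 and the type II genes on chromosome 15, all on the minus strand, while Tchh lies on chromosome 3 on the plus strand. The 250 bases before the start of transcription were available from RefSeq (build GRCm38.p6, an earlier build than that of the counts) for 8 of the 9 genes. Those of Krt25 and Krt28, and of Krt71 and Krt73, are shown because each pair has short motifs in a like order. Krt25 is at chr11:99322952-99323201, Krt28 at chr11:99374904-99375153, Krt71 at chr15:101743098-101743347 and Krt73 at chr15:101802361-101802610, each read 5′ to 3′ on the minus strand and ending at the base before the start. Capitals mark matches on either strand to TATAAA (the letters of a TATA box), AGATAA (the letters bound by GATA factors), CAATTA and TAATTA (letters bound by homeodomain factors), motifs that were picked after these sequences had been read.
Krt25: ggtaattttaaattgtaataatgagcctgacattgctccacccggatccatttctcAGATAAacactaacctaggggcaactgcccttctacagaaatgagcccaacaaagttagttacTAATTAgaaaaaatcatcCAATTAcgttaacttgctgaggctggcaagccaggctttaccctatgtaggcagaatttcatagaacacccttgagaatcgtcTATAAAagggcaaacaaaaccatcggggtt
Krt28: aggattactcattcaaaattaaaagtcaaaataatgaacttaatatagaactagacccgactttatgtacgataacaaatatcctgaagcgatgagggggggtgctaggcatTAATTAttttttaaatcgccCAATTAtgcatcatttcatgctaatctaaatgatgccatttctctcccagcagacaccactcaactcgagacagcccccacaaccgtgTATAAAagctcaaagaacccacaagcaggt
Krt71: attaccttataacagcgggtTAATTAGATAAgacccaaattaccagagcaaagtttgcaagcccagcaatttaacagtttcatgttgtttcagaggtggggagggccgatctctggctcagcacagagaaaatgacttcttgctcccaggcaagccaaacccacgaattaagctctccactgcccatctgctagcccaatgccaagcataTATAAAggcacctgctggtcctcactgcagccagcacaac
Krt73: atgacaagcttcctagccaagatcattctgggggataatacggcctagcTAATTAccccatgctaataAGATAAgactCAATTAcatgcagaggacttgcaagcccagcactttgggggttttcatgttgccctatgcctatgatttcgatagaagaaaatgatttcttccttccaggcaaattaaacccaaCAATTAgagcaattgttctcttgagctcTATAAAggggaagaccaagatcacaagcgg

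TATAAA on the gene's own strand in the last 50 bases before the start was found in 6 of the 8 windows (Krt25, Krt26, Krt27, Krt28, Krt71 and Krt73), and in 2.63% of the 32851 mouse promoters of the RefSeq table. In Krt25, Krt26, Krt28 and Krt73 it began at the same place, position -30 counted from the start, in Krt71 at position -40 and in Krt27 at position -15. Krt72 held a match only on the other strand and far from the start, at position -203, and Tchh held none. AGATAA was found in 5 of the 8 windows (Krt25, Krt27, Krt71, Krt73 and Tchh) against 9.99% of all promoters, CAATTA in 4 (Krt25, Krt26, Krt28 and Krt73) against 7.17%, and TAATTA in 4 (Krt25, Krt28, Krt71 and Krt73) against 4.84%. In Krt25 and Krt28 a TAATTA was followed by a CAATTA, beginning at positions -131 and -113 in Krt25 and at positions -138 and -118 in Krt28. In Krt71 the TAATTA overlapped the AGATAA by 1 base. The longest run of bases that any of the 8 windows shared was ttgcaagcccagca, 14 bases found in Krt71 from position -196 and in Krt73 from position -154. Of 9 hair shaft keratin genes with an entry in the table, 6 held TATAAA on either strand within 250 bases, as did 7 of the 8 sheath windows and 12.4% of all promoters. Of the same 9, 0 held AGATAA, 0 held CAATTA and 1 held TAATTA. The motifs were picked after the sheath sequences had been read, so the counts beside hair shaft keratins and all promoters are a description only. They are matches of letters, and binding was not measured.

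Libraries held 56829330 to 105887450 counts. Levels are given as CPM (counts scaled to a common library size) with edgeR's TMM factors, and differences as log2 of GFP over bulk from edgeR's quasi-likelihood test, called at a Benjamini-Hochberg adjusted p under 0.05. Of 18583 genes tested, 955 were called lower in GFP libraries (5.14%) and 27 higher (0.145%), and the median log2 difference of all genes tested was 0.05. GFP 3 stood apart as the only library with abundant Xist, at 575 CPM against 0 to 0.0718 CPM in the other 4 libraries, and the sex that this points to is not stated in the labels. The basal keratin Krt14 was at 5452 and 6297 CPM in the bulk libraries and at 9491 to 13024 CPM in GFP libraries. Lrig1 itself averaged 159 ± 5.82 CPM (SD, n = 2) without the sort and 216 ± 8.75 CPM (SD, n = 3) with it. This difference was not called (log2 0.44 ± 0.18 SE, adjusted p = 0.292), but it was with the title number as a block (adjusted p = 0.00676). The fit with the block leaves 1 residual degree of freedom and called 6692 of the 18583 genes tested. Its difference rests on bulk 1 with GFP 1 and bulk 2 with GFP 2, since GFP 3 stands alone under its title number. Calls with the block are given below beside the main ones and do not replace them.

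All 9 genes were called lower in GFP-sorted cells, by 19.8-fold to 98.8-fold, against a background of 5.14% of genes called lower. Krt26 and Krt74 entered this count through their level in bulk alone, as their GFP libraries were below the filter on low counts. Summed over the 9 genes, the level was 1341 and 2805 CPM in bulk 1 and bulk 2 and 48.2, 52.1 and 47.9 CPM in GFP 1, GFP 2 and GFP 3. As a share of all counts this was 0.141% and 0.295% in bulk and 0.00446%, 0.00484% and 0.00502% in GFP libraries. For each of the 9 genes every GFP library lay below both bulk libraries, a pattern seen in 18.5% of all genes tested. In such libraries, fewer inner root sheath cells and less RNA per cell cannot be told apart.

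**Figure D1:**
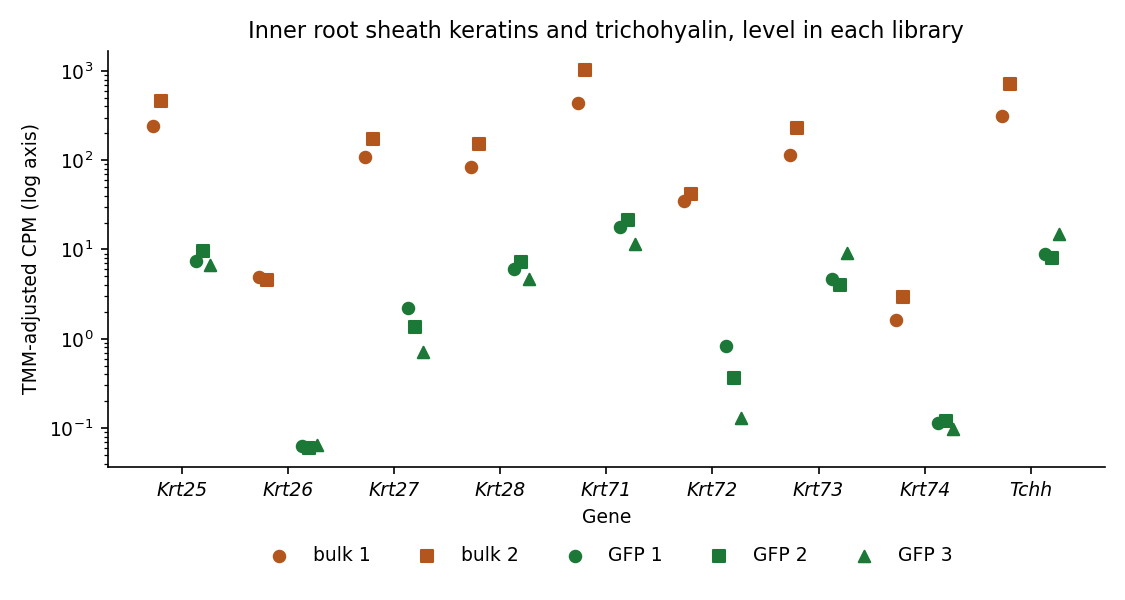
TMM-adjusted CPM of the 9 genes in each library (log axis). Points are single libraries, 2 bulk in orange and 3 GFP in green, with the marker giving the replicate. Every green point lies below both orange points of its gene, and the sums run from 47.9 to 52.1 CPM in GFP libraries and from 1341 to 2805 CPM in bulk.

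Among the type I keratins, Krt25 (ENSMUSG00000035831.3) was the most abundant per length. It was at 245 and 456 CPM in bulk 1 and 2 and at 7.42, 9.61 and 6.62 CPM in GFP 1, 2 and 3. The GFP libraries lay close together and bulk 2 was 1.87 times bulk 1. The mean fell 44.5-fold, from 351 ± 150 CPM (SD, n = 2) to 7.88 ± 1.55 CPM (SD, n = 3), a log2 difference of -5.48 ± 0.33 SE (adjusted p = 0.000164). Krt27, a general sheath keratin, was at 109 and 174 CPM in bulk against 2.22, 1.37 and 0.718 CPM in GFP libraries. Its GFP libraries spread 3.09-fold, with GFP 1 highest and GFP 3 lowest, and it fell 98.8-fold by the means (log2 -6.63 ± 0.47, adjusted p = 0.000297). Its log2 difference was the largest in size of the 9, except with limma-voom, without GFP 1 or without bulk 2, where that of Krt72 was larger. Krt28, the third general type I keratin of the sheath, was at 84.7 and 151 CPM in bulk and at 6.03, 7.18 and 4.68 CPM in GFP libraries. It fell 19.8-fold (log2 -4.31 ± 0.31, adjusted p = 0.000297), the smallest difference of the 9 except without GFP 2, where that of Krt74 was smaller.

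Krt26, a keratin of the sheath cuticle, had the lowest level per length of the 8 genes with a coding length. It was at 4.90 and 4.58 CPM in bulk (293 and 511 counts) and at 0.0633, 0.0603 and 0.0643 CPM in GFP libraries (5, 4 and 6 counts). The libraries of each group nearly coincided, and Krt26 was the only one of the 9 genes that was not higher in bulk 2 than in bulk 1. It fell 75.7-fold (log2 -6.20 ± 0.37, adjusted p = 0.000155), and its level in the GFP libraries rests on these few counts.

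Among the type II keratins, Krt71 (ENSMUSG00000051879), the general type II keratin of the sheath, had the highest level per length in both groups. It was at 436 and 1033 CPM in the bulk libraries and at 17.8, 21.4 and 11.6 CPM in GFP libraries. Bulk 2 was 2.37 times bulk 1, the widest gap between bulk libraries among the 9 genes. The fall was 43.5-fold (log2 -5.44 ± 0.44, adjusted p = 0.000458), and the log2 difference was -4.70 without bulk 2.

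The cuticle keratins Krt72 and Krt73 are neighbours on the chromosome. Krt72 was at 34.8 and 41.6 CPM in bulk against 0.836, 0.362 and 0.129 CPM in GFP libraries (66, 24 and 12 counts). GFP 1 was 6.50 times GFP 3, the widest spread of GFP libraries among the 9 genes. Krt72 fell 86.4-fold (log2 -6.44 ± 0.61, adjusted p = 0.000901), and its log2 difference was -7.33 without GFP 1. Krt73 was at 115 and 231 CPM in bulk and at 4.72, 4.03 and 9.23 CPM in GFP libraries, with GFP 3 highest. It fell 28.8-fold (log2 -4.84 ± 0.44, adjusted p = 0.000777).

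Krt74, annotated in mouse as a transcribed unitary pseudogene, was at 1.64 and 2.96 CPM in bulk (98 and 330 counts) and at 0.114, 0.121 and 0.0964 CPM in GFP libraries (9, 8 and 9 counts). The 2 groups lay well apart, and the fall was 20.8-fold (log2 -4.37 ± 0.44, adjusted p = 0.00115). Tchh (ENSMUSG00000052415), the trichohyalin gene, was at 311 and 710 CPM in the bulk libraries and at 9.004, 8.02 and 14.8 CPM in GFP libraries. As for Krt73, GFP 3 was the highest GFP library. Tchh fell 48.2-fold (log2 -5.59 ± 0.44, adjusted p = 0.000403), and its log2 difference was -4.88 without bulk 2.

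The differences were also taken within each title number, 1 library against 1 and so with no test. For 4143 (GFP 1 over bulk 1) they ran from -3.81 for Krt28 to -6.27 for Krt26, and for 4145 (GFP 2 over bulk 2) from -4.39 for Krt28 to -6.99 for Krt27. In 8 of the 9 genes the difference was larger for 4145, the exception being Krt26 at -6.27 and -6.25. Krt28 was the least lowered of the 9 in both. All 9 genes were called lower in each of the 15 other settings run, with a largest adjusted p of 0.0128 (Krt74 without bulk 2). Without GFP 3, the library that stands apart, the log2 differences ran from -4.17 for Krt28 to -6.30 for Krt27.

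**Figure D2:**
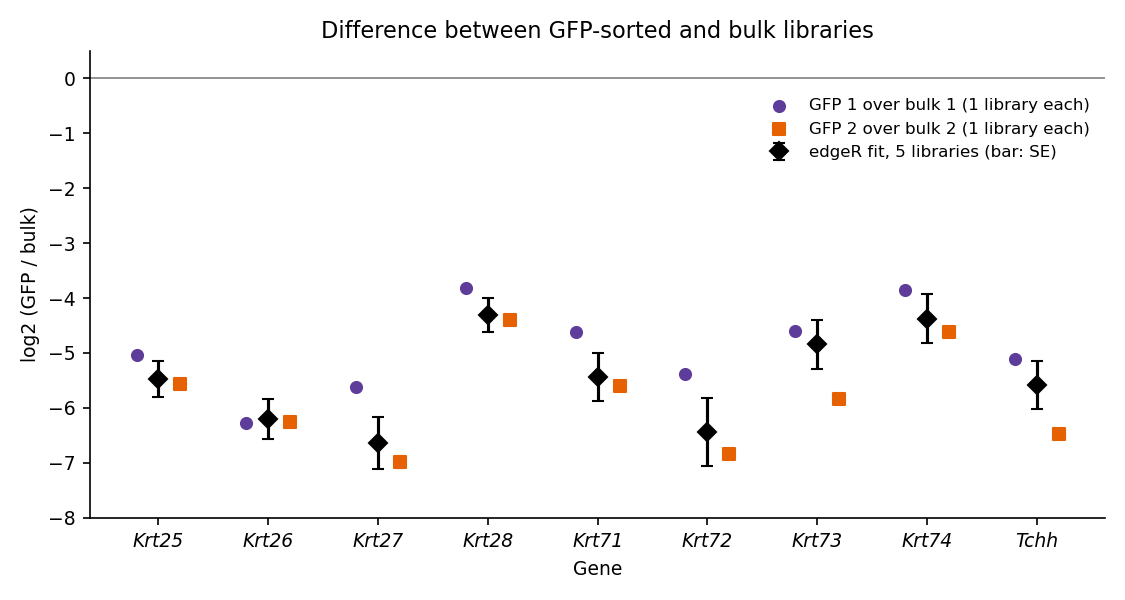
Log2 of GFP over bulk for each gene. Black diamonds are the edgeR estimates over 5 libraries with their SE, purple circles GFP 1 over bulk 1 and orange squares GFP 2 over bulk 2. All values lie at or below -3.81, and the orange square lies below the purple circle for each gene but Krt26.

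Levels can be ranked between genes only per length. Per kb of coding sequence, the mean bulk level was 467 CPM for Krt71, 262 for Krt25, 106.8 for Krt73, 106.4 for Tchh, 105.5 for Krt27, 85.0 for Krt28, 24.5 for Krt72 and 3.42 for Krt26. Krt74 has no coding length. The levels of Krt73, Tchh and Krt27 in bulk differed by less than the gap between the bulk libraries, and per kb of transcript Krt27 ranked above Tchh and Krt73. In GFP libraries the order was Krt71 at 10.7, Krt25 at 5.89, Krt28 at 4.30, Krt73 at 3.71, Tchh at 2.21, Krt27 at 1.07, Krt72 at 0.283 and Krt26 at 0.0452 CPM per kb. Krt28 thus held rank 6 of 8 in bulk and rank 3 in GFP libraries, on either length.

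Within the type I set, Krt28 took a larger share in every GFP library than in either bulk library, and Krt27 a smaller one. Krt28 made up 18.6% and 18.7% of the summed type I CPM per kb in bulk, and 37.5%, 38.6% and 37.9% in GFP libraries. Krt27 made up 24.7% and 22.3% in bulk, and 14.2%, 7.61% and 5.996% in GFP libraries. Krt25 stayed the largest component in every library, at 55.6% and 58.5% in bulk and at 47.9%, 53.5% and 55.6% in GFP libraries. The ratio of Krt28 to Krt27 in CPM was 0.776 and 0.866 in bulk and 2.72, 5.23 and 6.52 in GFP libraries, with no overlap. This ratio and that of Krt73 to Krt72, given below, were singled out after their values had been seen. The exact permutation test was run with the smaller tail doubled. Run so with 2 against 3 libraries, it cannot go below a two-sided p of 0.2, the value that both ratios gave. Summed type II over summed type I CPM per kb was 1.13 and 1.42 in bulk and 1.27, 1.22 and 1.48 in GFP libraries, so the ranges of the 2 groups overlapped (exact two-sided permutation p = 0.8).

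Within the type II set, Krt71 made up 74.9% and 79.5% of the summed CPM per kb in bulk, and 76.6%, 83.3% and 55.9% in GFP 1, 2 and 3. Krt73 made up 19.1% and 17.3% in bulk, and 19.8%, 15.3% and 43.4% in GFP libraries. GFP 3 alone thus departed from the other 4 libraries in these shares, while GFP 1 and GFP 2 lay close to bulk. The ratio of Krt73 to Krt72 in CPM was 3.29 and 5.54 in bulk and 5.65, 11.1 and 71.8 in GFP libraries. In GFP 3 it rests on 12 counts of Krt72. It was singled out after its values had been seen (exact two-sided permutation p = 0.2). The ratio of Tchh to Krt71 in CPM was likewise highest in GFP 3, at 1.28, against 0.712 and 0.687 in bulk and 0.507 and 0.375 in GFP 1 and 2. GFP 3 is also the library with abundant Xist and the one with no bulk library of its title number, and the part of either in these shares was not tested.

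**Figure D3:**
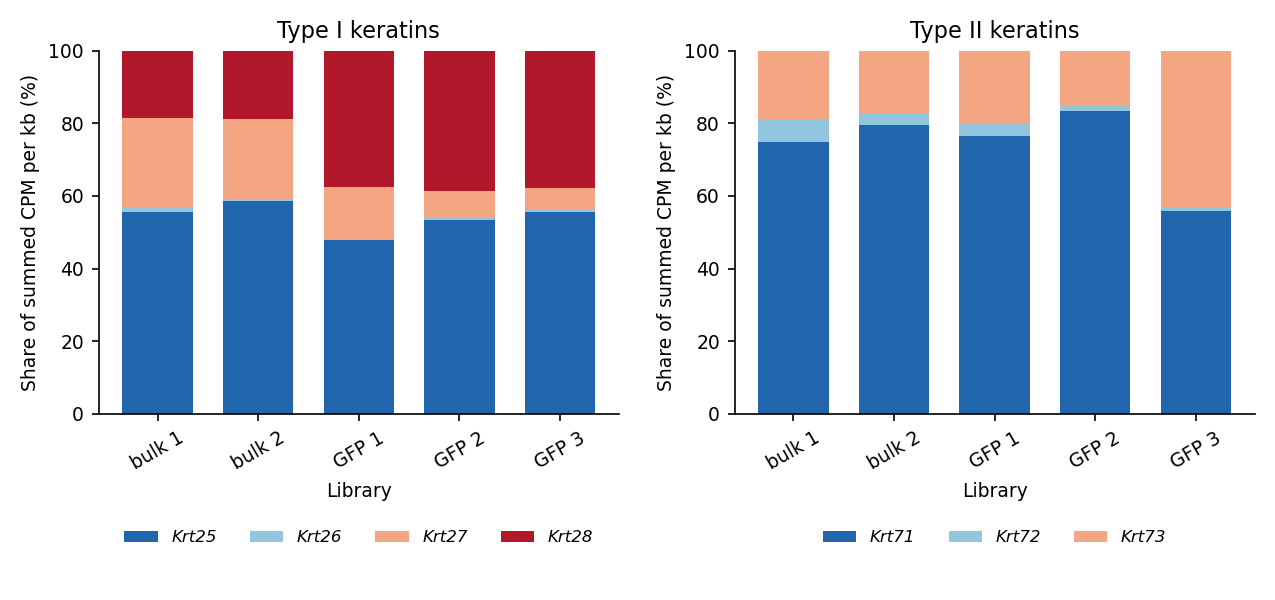
Share of each gene in the summed CPM per kb of coding sequence of the type I keratins (left) and the type II keratins without Krt74 (right), for each library. Bars are stacked to 100%. The Krt28 segment is 18.6% and 18.7% in bulk and 37.5% to 38.6% in GFP libraries, and the Krt73 segment reaches 43.4% in GFP 3.

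Reads of near-identical stretches can be split between these genes, depending on how they were counted. Of the 50-base words of the longest Krt25 transcript, 8.61% also occur in Krt27, 1.96% in Krt28 and 0.52% in Krt15, a keratin of basal cells at 4158 to 7498 CPM in these libraries. Krt27 shares 11.1% of its words with other genes, Krt28 2.41%, Krt74 2.60%, Krt71 1.97%, Krt73 1.32%, Krt26 0.30% and Krt72 0.16%, while Tchh shares none. Tchh is overlapped by the antisense gene Gm37245, which had 0 counts in 4 libraries and 1 count in bulk 2. How much of the low Krt25 level in GFP libraries comes from shared words was not tested.

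The levels also differed between the bulk libraries. Bulk 2 was above bulk 1 in 8 of the 9 genes, and the median ratio of bulk 2 to bulk 1 was 1.81 for the 9 genes, against 0.998 for all genes tested. The same median was 1.38 for the S100 fused-type family, 1.37 for companion layer and outer root sheath keratins, 1.30 for the transcription factors, 1.26 for the cross-linking enzymes, 1.10 for hair shaft keratins and 0.447 for melanocyte markers. Animal and preparation cannot be told apart with 1 library each.

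Both clusters are flanked by keratins of other epithelial layers. Of the 8 flanking keratins, the nearest 2 on each side, 0 were called by edgeR and 3 were lower at an unadjusted p under 0.05 (Krt10, Krt2 and Krt1). With the title number as a block 5 were called, as were 6692 of all 18583 genes tested. On chromosome 11 the 4 genes stand between Krt24 and Krt10, in the order of the RefSeq table. Krt24, a keratin of differentiated epithelia, was at 7.24 and 3.59 CPM in bulk against 9.32, 4.40 and 11.4 CPM in GFP libraries (log2 0.63 ± 0.45, adjusted p = 0.563). Krt10, the main suprabasal type I keratin of the epidermis, was at 13533 and 9709 CPM in bulk and at 4724, 7176 and 5255 CPM in GFP libraries (log2 -1.02 ± 0.34, adjusted p = 0.174, and called lower with the title number as a block, adjusted p = 7.88e-06). On chromosome 15 the type II genes stand between Krt5 and Krt2. Krt5, the type II keratin of basal cells, had a log2 difference of 0.65 ± 0.34 (adjusted p = 0.415, and called higher with the block, adjusted p = 0.00165). Krt2, a keratin of the upper epidermis, had a log2 difference of -1.11 ± 0.40 (adjusted p = 0.216, and called lower with the block, adjusted p = 0.000156). The log2 differences of the 8 flanking keratins lay between -1.11 and 0.89, against -4.31 to -6.63 for the sheath keratins between them. The highest, that of Krt222, rests on 5 and 10 counts in bulk and 11, 11 and 17 in GFP libraries. Krt12 had 6 to 26 counts in each library.

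**Figure D4:**
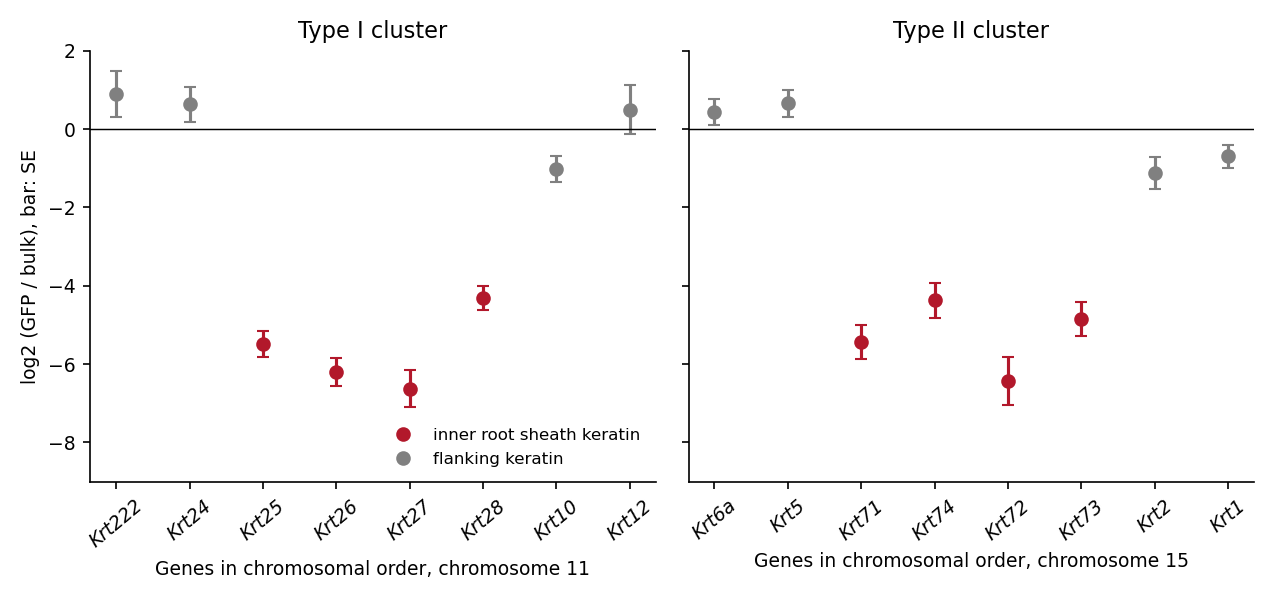
Log2 of GFP over bulk (edgeR, bars are SE) for keratin genes in their order along chromosome 11 (left) and chromosome 15 (right). Sheath keratins in red lie between -4.31 and -6.63, and the flanking keratins in grey between -1.11 and 0.89. Krt222 and Krt12 had few counts in every library.

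Beside Tchh on chromosome 3 lie other genes of its family, the S100 fused-type proteins, most of which serve in the cornified envelope of epidermis and follicle. Of 6 family genes other than Tchh, 5 were called lower (adjusted p under 0.05, background 5.14%), with a median log2 difference of -5.75 over the 6. Tchhl1, the trichohyalin-like neighbour, was at 6.59 and 9.17 CPM in the bulk libraries and at 0.0633, 0.151 and 0.0321 CPM in GFP libraries (log2 -6.63 ± 0.54, adjusted p = 0.000462). The log2 difference was -7.67 for Hrnr, the gene of hornerin, -6.92 for Flg2, -4.87 for Crnn and -3.29 for Flg, the filaggrin gene. In GFP 1, 2 and 3, Tchhl1 had only 5, 10 and 3 counts and Hrnr 3, 3 and 19. Hrnr, Flg and Flg2 are best known as genes of the epidermal granular layer. Rptn, the gene of repetin, was at 0.502 and 0.942 CPM in bulk against 0.0507, 0.0452 and 0.236 CPM in GFP libraries and was not called (log2 -2.65 ± 0.73, adjusted p = 0.0958), though it was with the block (adjusted p = 1.06e-09).

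The enzymes that modify trichohyalin and other envelope proteins were mostly lower too. Of 7 peptidylarginine deiminase and transglutaminase genes, 6 were called lower (background 5.14%) and 0 higher by edgeR, with a median log2 difference of -3.62. The count higher was also 0 at an unadjusted p under 0.05, by DESeq2 and by limma-voom. Padi3, the deiminase that acts on trichohyalin, was at 41.0 and 77.1 CPM in bulk and at 2.20, 1.55 and 0.611 CPM in GFP libraries (log2 -5.35 ± 0.52, adjusted p = 0.00102). The bulk and GFP libraries did not overlap. The other deiminase genes had log2 differences of -4.57 (Padi1), -4.43 (Padi4) and -3.62 (Padi2). The transglutaminases had log2 differences nearer to 0. Tgm3, which cross-links trichohyalin, was at 47.5 and 59.8 CPM in the bulk libraries and at 27.5, 23.0 and 19.1 CPM in GFP libraries (log2 -1.21 ± 0.22, adjusted p = 0.0169), and Tgm1, the main transglutaminase of the epidermal envelope, had a log2 difference of -1.91. Tgm5, another epidermal transglutaminase, had overlapping libraries and a log2 difference of 0.12 ± 0.25 (adjusted p = 0.863).

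Of 12 transcription factors known from the hair follicle, 6 were called lower (background 5.14%) and 0 higher by edgeR, with a median log2 difference of -0.97. The count higher was 1 at an unadjusted p under 0.05 and 0 by DESeq2 or limma-voom. The fit with the block called 8 of them lower and 1 higher, against 3652 lower and 3040 higher of all 18583 genes tested. The gene called higher was Ovol1 (log2 0.69, adjusted p = 9.36e-05), an epithelial zinc finger factor. Its log2 difference of 1.04 without the block was not called (adjusted p = 0.307). Lef1, the nuclear partner of beta-catenin in hair matrix cells, was at 8.56 and 16.8 CPM in bulk against 0.165, 0.287 and 0.279 CPM in GFP libraries (log2 -5.70 ± 0.42, adjusted p = 0.000314). Dlx3, a homeodomain factor required for hair formation, was at 61.9 and 132 CPM in bulk and at 11.03, 9.80 and 10.5 CPM in GFP libraries (log2 -3.22 ± 0.31, adjusted p = 0.000915). The log2 difference was -1.98 for Hoxc13, a homeobox gene that controls hair keratin genes, and -1.72 for Msx2, while Trps1 and Foxn1 were the other two called. Without bulk 2, 3 of the 12 were called. Gata3, a factor needed for the inner root sheath lineage, was at 254 and 285 CPM in the bulk libraries and at 161, 259 and 164 CPM in GFP libraries. Its libraries overlapped and the log2 difference of -0.47 ± 0.26 was not called (adjusted p = 0.444), though it was with the block (adjusted p = 0.0216).

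The hair shaft keratins, which fill the fibre inside the sheath, were lower too. Of 14 tested, 13 were called lower (background 5.14%) and 0 higher by edgeR. The count higher was also 0 at an unadjusted p under 0.05, by DESeq2 and by limma-voom. Their median log2 difference was -6.67, against -5.48 for the 9 sheath genes. Krt81 was at 36.7 and 32.1 CPM in bulk against 0.0253, 0.0754 and 0.0428 CPM in GFP libraries (2, 5 and 4 counts). In GFP 1, 2 and 3, Krt33b had 10, 0 and 3 counts and Krt34 had 5, 0 and 2. The size of the difference in these genes rests on few counts. Krt32 was not called (log2 0.34 ± 0.33, adjusted p = 0.672), but it was called higher with the title number as a block (log2 0.60, adjusted p = 0.00112). Of 5 companion layer and outer root sheath keratins, Krt75 was called lower (log2 -2.86 ± 0.42, adjusted p = 0.00678) and Krt16 higher (log2 1.19 ± 0.25, adjusted p = 0.0322), a call that was lost when either bulk library, GFP 1 or GFP 2 was left out. The list's median was 0.44, and 3 of the 5 were called higher with the block. Of 17 other epithelial keratins tested, 3 were called lower (Krt23, Krt77 and Krt78) and 0 higher by edgeR, with a median of 0.27, while 1 was higher at an unadjusted p under 0.05, 1 by DESeq2 and 0 by limma-voom. With the block 6 of them were called lower and 5 higher. Of 6 basal keratinocyte genes 0 were called in either direction by edgeR, with a median of 0.60. Of these 6, 1 was higher at an unadjusted p under 0.05, 1 by DESeq2, 0 by limma-voom and 4 with the block. Over all 18583 genes tested, the fit with the block called 3652 lower and 3040 higher.

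**Figure D5:**
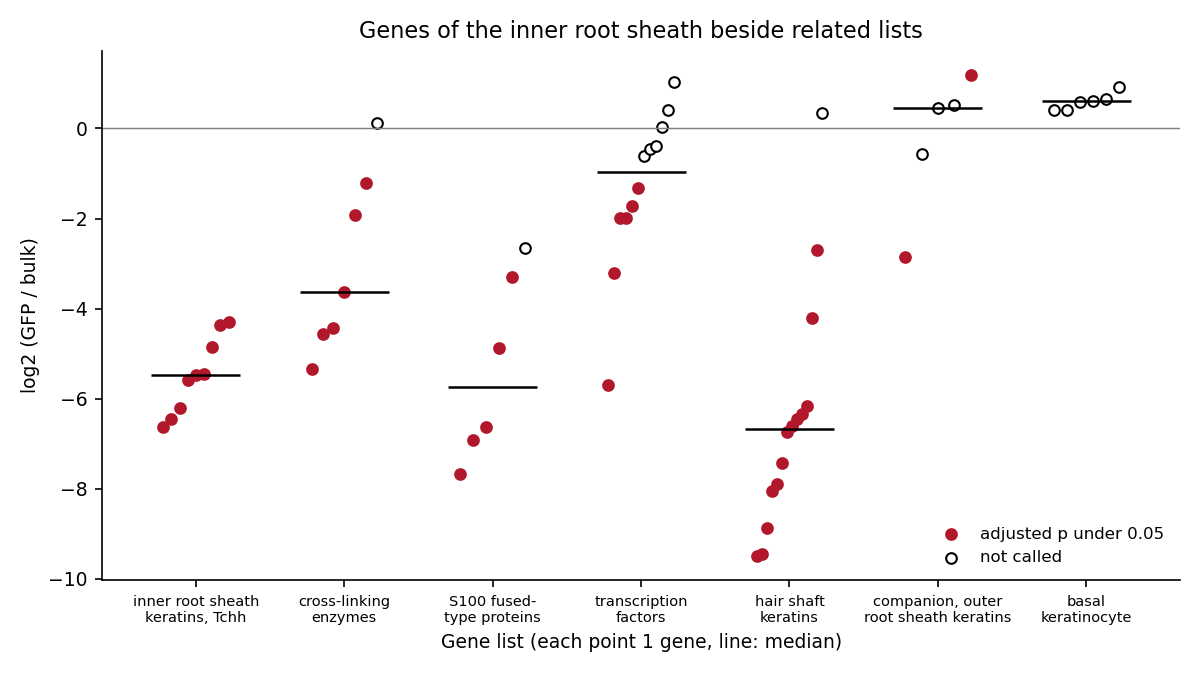
Log2 of GFP over bulk of each tested gene in the sheath set and 6 related lists. Filled red points were called by edgeR at an adjusted p under 0.05, open points were not, and lines are list medians, which are -5.48 for the sheath genes, -6.67 for hair shaft keratins and 0.60 for basal keratinocyte genes.

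Markers of other cells in skin were measured in the same libraries. By edgeR 5.14% of all genes tested were called lower, and with the title number as a block 3652 of 18583. Of 8 melanocyte genes, 7 were called lower (all but Mitf), with summed levels of 289 and 121 CPM in bulk and 10.7 to 17.4 CPM in GFP libraries. All 9 immune genes were called lower, at 372 and 362 CPM in bulk and 26.3 to 53.8 CPM in GFP libraries. All 5 red cell genes were called lower, at 194 and 202 CPM in bulk and 1.24 to 7.98 CPM in GFP libraries. Of 6 fibroblast genes 2 were called lower (Dcn and Pdgfra, and all 6 with the block), at 196 and 153 CPM in bulk and 168, 36.1 and 9.56 CPM in GFP 1, 2 and 3. Among defining markers, Sox10, of melanocytes, had 0 counts in GFP 1 and GFP 2. Summed melanocyte genes were higher in bulk 1, and summed sheath genes in bulk 2. The part of these cells in the levels of the sheath genes was not tested.

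The genes whose profile over the 5 libraries was nearest to the mean profile of the 9 were Prr5l, Csdc2, F13a1, Shh, Hes2, Parvb, Prr9, Crhr1, Muc20 and Mmrn1, at Euclidean distances of centred log2 CPM from 0.422 to 0.856. The 9 genes themselves stood at 0.383 (Krt25) to 2.12 (Krt72) from their own mean, in which they take part. Shh, the signal made by hair matrix cells, was at 1.66 and 2.53 CPM in bulk and at 0.0253, 0.0302 and 0.0321 CPM in GFP libraries (2, 2 and 3 counts). Prr9, which encodes a proline-rich protein, was at 48.0 and 56.6 CPM in bulk against 1.05, 0.799 and 0.611 CPM in GFP libraries. F13a1, Muc20 and Mmrn1 had 0 counts in all 3 GFP libraries, and all but Prr9 had at most 10 counts in each. With so few counts, nearness in profile depends in part on the prior count of 1. The genes were picked for this profile, so their levels are a description only.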

How the data were processed

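RNA was measured in 5 libraries of mouse back skin keratinocytes (2 bulk, 3 GFP). The authors deposited raw counts per Ensembl gene ID, in whole numbers. Per the submitters' processing notes, the authors used STAR and GRCm39. For the counting tool, its annotation and strand setting, and any filter, the entry is: not given in the sources used here. Gene IDs were matched without version to GENCODE M21 (GRCm38): 52073 of 56691 had a symbol. No coordinates of the counted genes are given because the builds differ, and promoter coordinates are those of the RefSeq table. Total counts were 56829330 and 105887450 in bulk 1 and 2, and 85307002, 71410484 and 89080100 in GFP 1, 2 and 3. The counts carry no molecular identifiers.

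Counts were fitted with edgeR 4.0.16 in R 4.3.3 (TMM, group term, quasi-likelihood test, two-sided, filterByExpr with minimum count 10 and minimum total 15), with Benjamini-Hochberg adjustment over 18583 genes and a threshold of 0.05. The fit leaves 3 residual degrees of freedom. Its SE was derived from the test, as the size of the log2 difference divided by the square root of the F statistic. Alternatives were DESeq2 1.42.0 size factors and Wald test, upper quartile scaling, library size alone, limma-voom (limma 3.58.1), other filters on low counts, the title number as a block, and leaving out each library. Removal of the length trend (loess span 0.3) was planned on coding length, which only 78.5% of tested genes had, and was run instead on the length of the longest transcript (97.4%), alone and with the block, a choice made after seeing the data.

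Counts of replicates differed beyond sampling noise, with chi-square values of 147 to 443 for each degree of freedom. Title numbers, 4143 for bulk 1 and GFP 1, 4145 for bulk 2 and GFP 2 and 4146 for GFP 3, were treated as animal numbers, although no label says so. The bulk and GFP libraries of 4143, and those of 4145, carry different genotype labels, which sits poorly with 1 animal for each number. Across 18583 genes, which are not independent, the difference of bulk 1 and 2 correlated with that of GFP 1 and 2 (Pearson r = 0.457). The genes described and the lists were chosen with earlier results of these data known. The rule for names allowed the 9 sheath genes, up to 4 tested genes of smallest p in each list, any gene in lists of up to 7, Lrig1 and the 10 genes nearest in profile (log2 CPM with a prior count of 1). Flanking genes and others named beside a value that singles them out were added after seeing the values. Shared sequence was counted in words of 50 bases over M21 transcripts. Not every gene the rule allows is named.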

Additional observations from a re-analysis of the deposited data

How the results depend on the processing

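All 9 sheath genes kept their direction and their call in each of the 15 alternatives (135 of 135 combinations of gene and alternative). With the title number as a replicate block, which leaves 1 residual degree of freedom, 9 of 9 were called, with log2 differences from -4.10 (Krt28) to -6.26 (Krt27). Leaving out a library moved the fold by over 1.5 times for Krt71 (log2 -5.93 to -4.70), Krt72 (-7.33 to -5.98) and Tchh (-6.06 to -4.88). Fits without a bulk library assume that the lone bulk library varies like the GFP libraries.

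Counts over all genes moved more. Against 982 calls (955 lower, 27 higher), the DESeq2 Wald test made 1498 (1310 lower, 188 higher), no filter on low counts 1918 (1660 lower, 258 higher), the replicate block 6692 (3652 lower, 3040 higher), and the block with the length trend removed 4981 (2708 lower, 2273 higher). Without bulk 1 there were 523 calls and without bulk 2 there were 480. Scaling by library size alone moved the median log2 difference of all genes from 0.0506 to -0.0678.

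Among the lists, the replicate block, with or without the length trend removed, gave 1 transcription factor, 1 hair shaft keratin and 3 companion or outer root sheath keratins called higher, 6 other epithelial keratins and 6 fibroblast genes called lower, 5 other epithelial and 4 basal genes called higher with the block alone, and 3 and 6 with the trend removed too. With no filter on low counts, 1 transcription factor and 1 other epithelial keratin were called higher, and 5 other epithelial keratins and 6 fibroblast genes lower. The DESeq2 Wald test called 1 other epithelial keratin and 1 basal gene higher. Fibroblast genes called lower were 1 with the filter of 1 CPM in 2 libraries and 1 with the length trend removed alone. With 1 library left out, 3 to 6 transcription factors, 1 to 3 other epithelial keratins and 1 to 3 fibroblast genes were called lower, and 0 to 1 companion or outer root sheath keratins higher. The cause of these changes was not tested. Depth limits Krt26 and Krt74, which had 4 to 9 counts in each GFP library.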
